A study of Bos taurus with 20 samples.

Results

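The genes described here encode the steps of glycolysis and the transcriptional response to hypoxia in clonal populations of bovine mesenchymal stem cells (MSC). They were chosen by symbol, as 24 glycolysis genes and 15 hypoxia genes, and all 39 were found among the 33063 named genes of the count table. Glycolysis breaks glucose down to pyruvate: transporters bring glucose into the cell, hexokinases trap it, phosphofructokinase commits it to the pathway, and pyruvate is then turned to lactate or enters the mitochondria, an entry that pyruvate dehydrogenase kinases restrain. Hypoxia-inducible factor 1 is a pair of proteins, HIF-1α and ARNT, whose α subunit is destroyed after prolyl hydroxylases mark it in the presence of oxygen, and it induces glycolytic enzymes, VEGFA and other genes when oxygen is scarce. MSC in culture are known for a strongly glycolytic metabolism, and adipose tissue is known to become hypoxic when it expands.

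RNA was sequenced from 20 clones, 1 library each, every clone being a population grown from 1 sorted cell and not yet differentiated when its RNA was taken. The 10 adipogenic (A) clones were the ones with the largest share of cells stained for lipid after a later adipogenic differentiation test. The 10 non-adipogenic (N) clones came from those that did not differentiate in the first such test. All came from visceral fat of Holstein Friesian x Aberdeen Angus calves of 1 to 6 months. They were grown in high-glucose medium with serum and bFGF, with no hypoxia treatment or inhibitor in either group. Sorted single cells were seeded on gelatine-coated plates, and their medium also held medium conditioned by MSC of the same animal. An A and an N clone came from animal 17 and again from animal 20, while animals 22 and 23 contributed 4 A and 4 N clones apiece. Clones are named by group, animal and clone number.

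Total counts ranged from 14615493 to 29185355 in A clones and from 14908802 to 43111345 in N clones, with medians of 16112862 and 16316703.5. The study also states that N clones grew faster. None of the 11 stromal markers passed the test between the groups, while 9 of 15 proliferation genes were lower in A clones and none higher, with a summed level of 54.9 to 566 CPM (counts scaled to library size) in A clones and 191 to 929 CPM in N clones. Of 7 smooth muscle and pericyte markers tested, 3 were higher in A clones (MYH11, CSPG4 and NOTCH3). The summed level of all 8 markers of that list was 971 to 9064 CPM in A clones and 130 to 6217 CPM in N clones. ACTA2 alone had means of 3210 CPM in A clones and 1955 CPM in N clones, and it did not pass (adjusted p = 0.334 by edgeR's test described below). N clones 22-5 and 22-9 stood apart, with summed mesothelial markers, keratins among them, of 9198 and 6512 CPM, against a range of 8.82 to 9198 CPM over all N clones (median 157 CPM) and of 7.73 to 1095 CPM in A clones (median 58.8 CPM), and in N clone 22-5 the stromal markers THY1 and NT5E were at 0.395 and 0.508 CPM. MSLN was the only called gene of 6 mesothelial markers tested, lower in A clones (log2 fold change -1.97, adjusted p = 0.0393 by edgeR's test described below). ERG was the only one of 5 endothelial markers tested, higher in A clones (2.51, adjusted p = 0.0323, same test). The summed level of all 8 endothelial markers was 1.41 to 54.7 CPM in N clones and 9.65 to 106 CPM in A clones. Of 4 mature adipocyte markers tested, only PLIN1 passed, higher in A clones (0.53, adjusted p = 0.0456, same test). LPL (1.93, adjusted p = 0.115), FABP4 (0.94, adjusted p = 0.357) and CIDEC (-0.64, adjusted p = 0.129) did not pass that test, and CIDEC had the opposite sign. Of 8 macrophage and leukocyte markers 2 could be tested and both were higher in A clones, CD68 (1.06, adjusted p = 0.0157, same test) and MRC1 (2.00, adjusted p = 0.0248). The summed level of the 8 was 1.62 to 13.7 CPM in N clones (median 2.997 CPM) and 3.60 to 23.1 CPM in A clones (median 10.6 CPM), CSF1R lay above every N clone in all 10 A clones at no more than 35 counts, PTPRC was at no more than 7 counts in any clone, and LYZ was at 0 counts in all. The part of these differences in the results that follow was not tested, and in bulk RNA fewer cells of a type and less RNA per cell cannot be told apart.

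The comparison of A with N clones asks which of these genes differ, before any differentiation, between clones that will and will not make adipocytes. Of the 39 genes, 34 passed the filter on low counts and 6 were differentially expressed. The test was edgeR's quasi-likelihood F test on the raw counts with the animal as a block, and genes were called at a p under 0.05 after Benjamini-Hochberg adjustment over all genes tested. SLC2A1, HK2, PDK3, VEGFA and HIF1A were upregulated in A clones, while PFKP was downregulated. Over all 12900 genes tested the same threshold was passed by 20.6%, with 10.3% higher and 10.3% lower in A clones, so that 17.6% of the tested members is close to the background. SLC2A1, HK2 and HIF1A changed by at least 2-fold upwards, a step taken by 3.95% of all genes, and 0 members fell as far, against 1.81% of all genes. The median log2 fold change of the tested members was 0.13, against -0.01 over all genes, with 23 values above 0 and 11 below. The glycolysis genes counted 3 up and 1 down of 23 tested, and the hypoxia genes 2 up and 0 down of 11 tested.

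**Figure D1:**
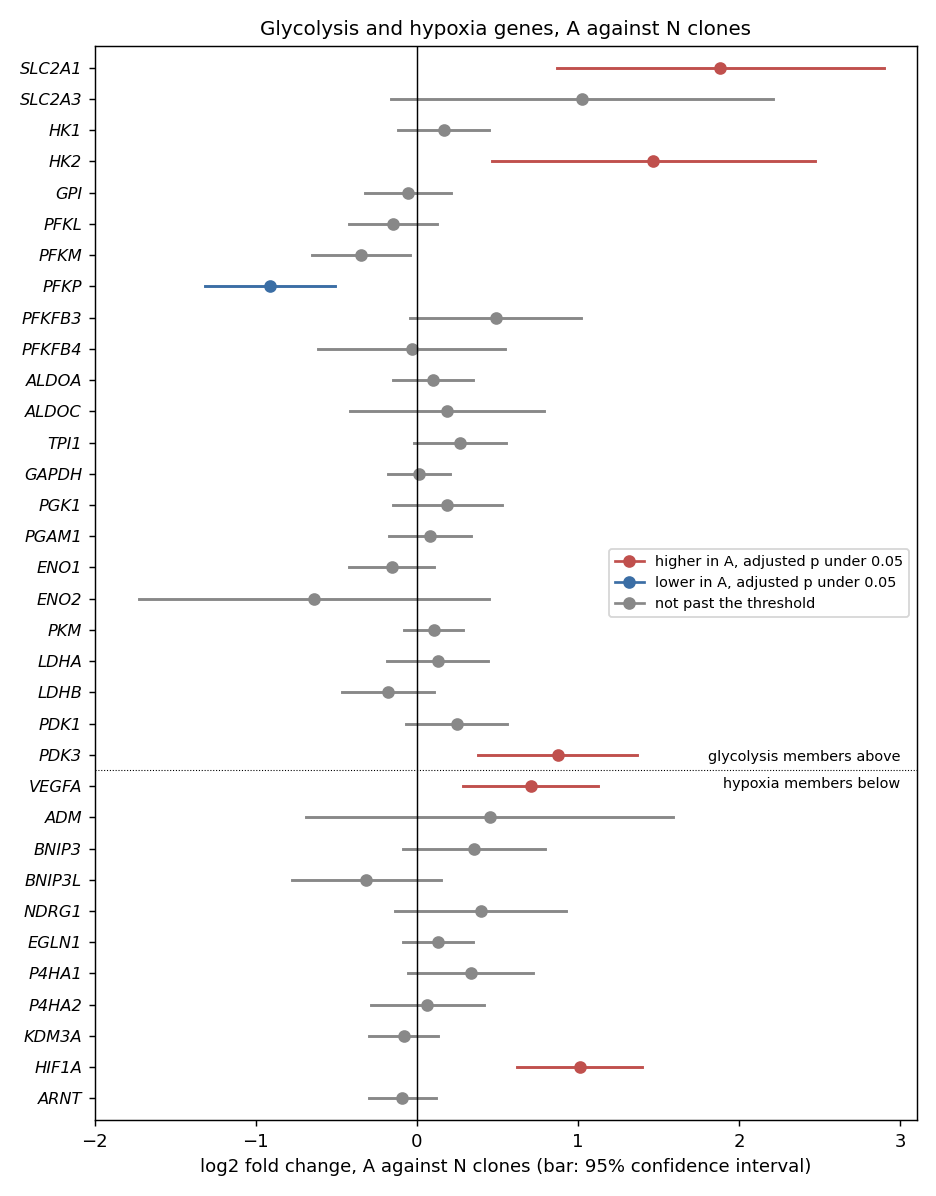
Log2 fold change of A against N clones for the 34 tested genes (points) with 95% confidence intervals (bars), n = 10 clones per group, glycolysis genes above the dotted line and hypoxia genes below. The 5 genes higher in A clones (red) lie between 0.71 and 1.88, PFKP (blue) lies at -0.91, and the intervals of GPI, ALDOA, TPI1, GAPDH, PGK1, PGAM1, ENO1, PKM and LDHA include 0.

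Glucose enters through transporters of the SLC2A family. SLC2A1 (GLUT1, the transporter for basal glucose uptake) ranged from 3.25 to 46.6 CPM in N clones, with a median of 10.8 CPM, and from 6.88 to 88.6 CPM in A clones, with a median of 35.0 CPM. A clones were higher as a group, but the groups overlapped, since N clone 22-18 held 46.6 CPM and A clone 22-121 held the lowest A value. The log2 fold change was 1.88 with a standard error (SE) of 0.481 and an adjusted p of 0.0133 by the test above, the largest among the tested members. Mean log2 levels were higher in A clones in all 4 animals, by 0.59, 4.37, 1.02 and 2.35 in animals 17, 20, 22 and 23.

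SLC2A3 (GLUT3, a transporter of high affinity) ranged from 5.36 to 177 CPM in N clones (median 39.2 CPM) and from 58.1 to 286 CPM in A clones (median 81.4 CPM). All 10 A clones lay above the N median, and 7 N clones lay below every A clone. Its log2 fold change of 1.02 (SE 0.563) did not pass (adjusted p = 0.199, same test). N clone 22-18 held the 177 CPM, and without it the value was 1.43 with an adjusted p of 0.0444. The adjusted p ran from 0.0444 to 0.989 over the alternatives other than single animals. Animal 23 alone gave 2.66 (adjusted p = 0.0230, same test). The A excess was largest in animal 23, at 2.48 on the log2 scale. Without that animal the fold change was -0.02.

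Hexokinases phosphorylate glucose so that it stays in the cell. HK2, the inducible isoform, ranged from 3.22 to 86.7 CPM in N clones (median 21.8 CPM) and from 6.61 to 157 CPM in A clones (median 70.9 CPM). Only 3 A clones lay above every N clone, and in animal 17 the A clone was the lower, at 6.61 against 10.6 CPM. This gave a log2 fold change of 1.47 (SE 0.475, adjusted p = 0.0382, same test). This was the weakest call of the group. It was lost without the animal block (adjusted p = 0.106) and in 13 of 20 fits that each left out 1 clone, namely N clones 20-15, 22-5, 22-17, 23-10, 23-22, 23-23 and 23-74 and A clones 20-106, 22-11, 22-16, 23-14, 23-62 and 23-68, with log2 fold changes between 1.29 and 1.52 and adjusted p-values between 0.0504 and 0.0760. Over the alternatives other than single animals the adjusted p ran from 0.00433 to 0.383, and in animal 22 alone it was 0.457. HK1, the constitutive isoform, did not pass (log2 fold change 0.17, adjusted p = 0.385), at 120 to 290.2 CPM in N clones and 168 to 333 CPM in A clones.

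Phosphofructokinase exists as a liver, a muscle and a platelet type, the products of PFKL, PFKM and PFKP. PFKP ranged from 122 to 356 CPM in N clones (median 220.3 CPM) and from 82.4 to 158 CPM in A clones (median 119 CPM). It was the only member called lower in A clones. No N clone was as low as 6 of the A clones and no A clone as high as 7 of the N clones. The overlap was due to N clones 17-23, 22-5 and 22-9 at 145, 122 and 134 CPM. On the log2 scale PFKP fell by 0.91 (SE 0.192, adjusted p = 0.00502 by the same test), and the mean was lower in A clones in all 4 animals, by as little as -0.12 in animal 17 and as much as -2.01 in animal 20.

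PFKM was at 29.4 to 46.7 CPM in N clones (median 36.8 CPM) and 20.9 to 51.1 CPM in A clones (median 27.4 CPM). Every N clone exceeded 5 of the A clones, but the highest value of all was that of A clone 17-57. It had an unadjusted p of 0.0276 and did not pass after adjustment (log2 fold change -0.35, SE 0.145, adjusted p = 0.0938). It passed when N clone 17-23, A clone 17-57 or A clone 22-121 was left out, at log2 fold changes of -0.45, -0.45 and -0.44 and adjusted p-values of 0.0326, 0.0328 and 0.0269, within a range of 0.0269 to 0.743 over the alternatives other than single animals. PFKL did not pass (-0.15, adjusted p = 0.428).

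The bifunctional enzymes PFKFB3 and PFKFB4 set the level of fructose 2,6-bisphosphate, the activator of phosphofructokinase. PFKFB3 ranged from 20.0 to 92.7 CPM in N clones and from 25.2 to 103 CPM in A clones. Values of 9 A clones lay above the N median of 32.8 CPM, but the log2 fold change of 0.49 (SE 0.251) did not pass (adjusted p = 0.169). PFKFB4 was at 3.32 to 12.9 CPM and 5.62 to 16.0 CPM, with a log2 fold change of -0.03 (adjusted p = 0.943).

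**Figure D2:**
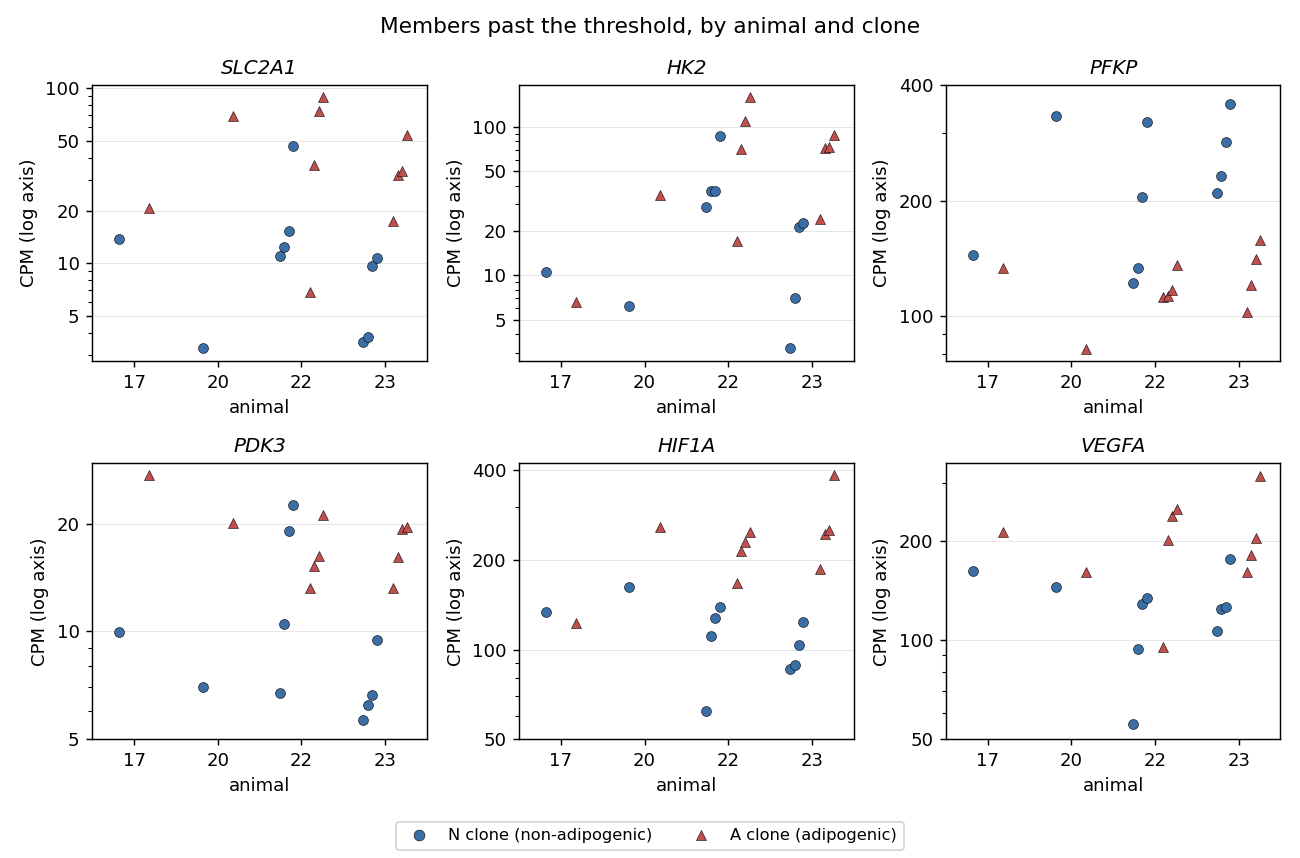
CPM (log axis) of the 6 differentially expressed members in each clone, by animal; N clones are blue circles and A clones red triangles, set side by side in order of level. In animal 23 all 4 A clones lie beyond all 4 N clones for SLC2A1, HK2, PFKP, PDK3 and HIF1A, while in animal 17 the A clone lies below the N clone for HK2 and HIF1A.

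On the route from glucose 6-phosphate to lactate, PFKP at the phosphofructokinase step fell in A clones, as given above. The genes GPI, ALDOA, TPI1, GAPDH, PGK1, PGAM1, ENO1, PKM and LDHA, which serve other steps of that route and are grouped here after their values had been seen, did not pass the test. None of the 9 passed at an adjusted or an unadjusted p under 0.05, and their log2 fold changes lay between -0.16 (ENO1) and 0.27 (TPI1) with a median of 0.10. Their summed level was 7723 to 11898 CPM in N clones (median 10484 CPM) and 9247 to 12689 CPM in A clones (median 10542 CPM), so that the ranges overlapped widely.

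TPI1, triose phosphate isomerase, came nearest to passing (adjusted p = 0.160, SE 0.134). It was at 271 to 612 CPM in N clones (median 437 CPM) and 412 to 648 CPM in A clones (median 531 CPM), and 4 N clones lay below every A clone. GAPDH, often used as a reference gene, had a log2 fold change of 0.01 with a 95% interval of -0.18 to 0.20, and PKM, pyruvate kinase, 0.10 with an interval of -0.08 to 0.29. These intervals leave no room for a 2-fold difference in either direction.

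ENO2, the neuronal enolase, had one of the largest spreads among N clones, from 2.33 to 126 CPM, with a median of 16.2 CPM, against 3.34 to 57.1 CPM in A clones (median 17.6 CPM). Its highest values were in the keratin-rich N clones 22-5 and 22-9, at 126 and 77.3 CPM. The log2 fold change was -0.64 (SE 0.515, adjusted p = 0.385), and without those clones it was 0.34 (adjusted p = 0.606), within 0.237 to 0.897 over the alternatives. ALDOC, the brain aldolase, had a log2 fold change of 0.19 (adjusted p = 0.667).

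At the end of the pathway, lactate dehydrogenase subunits A and B did not differ past the threshold (LDHA 0.13, adjusted p = 0.560; LDHB -0.18, adjusted p = 0.351). Pyruvate dehydrogenase kinases phosphorylate and switch off pyruvate dehydrogenase, which keeps pyruvate out of the mitochondrial citrate cycle. PDK3 ranged from 5.66 to 22.5 CPM in N clones (median 8.24 CPM) and from 13.2 to 27.2 CPM in A clones (median 17.8 CPM). Every A clone lay above the N median, and 8 N clones lay below every A clone; N clones 22-17 and 22-18, at 19.0 and 22.5 CPM, made the overlap. PDK3 rose by 0.87 on the log2 scale (SE 0.234, adjusted p = 0.0164, edgeR's test as above), higher in all 4 animals, by 1.44, 1.51, 0.30 and 1.28 in animals 17, 20, 22 and 23.

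PDK1, the hypoxia-induced kinase, was at 12.03 to 32.3 CPM in N clones (median 20.5 CPM) and 19.7 to 32.9 CPM in A clones (median 26.6 CPM). Its highest values were alike in the groups, and 4 N clones lay below every A clone. The log2 fold change of 0.25 (SE 0.148) did not pass (adjusted p = 0.238). PDK4, induced by fasting and fatty acids, was nearly silent: counts were 0 in 7 N clones, 1, 1 and 3 in the others, and 0 to 7 in A clones, with 5 counts in all over the N clones and 33 over the A clones. The filter removed it. A fit without the filter called it higher in A clones (log2 fold change 3.01, SE 0.697, adjusted p = 0.0102, edgeR's test), but at these counts the fitted size depends on the prior count and gives no bound on the fold.

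The hypoxia genes were led by HIF1A, which encodes the oxygen-regulated subunit of the factor. It ranged from 62.1 to 162 CPM in N clones (median 117 CPM) and from 123 to 385 CPM in A clones (median 236 CPM). No N clone reached the level of 9 of the A clones, and the exception was A clone 17-57, the only A clone of its animal, at 123 CPM beside 133 CPM in N clone 17-23. HIF1A rose by 1.01 on the log2 scale (SE 0.184, adjusted p = 0.00221 by the same test), the smallest adjusted p among the members, and the condition took 61.6% of the variance of its log2 level. Animals gave -0.11, 0.67, 1.01 and 1.37 in the order 17, 20, 22 and 23. The oxygen regulation of HIF-1α acts on the protein, which was not measured.

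ARNT and EGLN1, further components of the sensing machinery, did not pass, and neither did KDM3A. EGLN3, which the filter left out, is given below. ARNT, the constant partner of HIF-1α, had a log2 fold change of -0.09 with a 95% interval of -0.30 to 0.12. EGLN1, the main prolyl hydroxylase, had 0.13 with an interval of -0.09 to 0.35. KDM3A, a histone demethylase that HIF-1 induces, had -0.08 with an interval of -0.30 to 0.13.

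VEGFA, the angiogenic growth factor and a HIF-1 target, ranged from 55.7 to 177 CPM in N clones (median 128 CPM) and from 95.7 to 316 CPM in A clones (median 203 CPM). Each of the 4 animals had the higher mean in its A clones, no N clone reached 7 of the A clones, and A clones 20-106, 22-121 and 23-68, at 162, 95.7 and 161 CPM, lay below the highest N clone. VEGFA rose by 0.71 on the log2 scale (SE 0.198, adjusted p = 0.0202, same test). N clones 22-5 and 22-9 held its lowest N values, 55.7 and 94.0 CPM. Without those clones the fold change was 0.56 and the call was lost (adjusted p = 0.0536, within 0.00359 to 0.280 over the alternatives).

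The remaining hypoxia genes, also known as targets of the factor, did not pass in the filtered fit, and their log2 fold changes had both signs. P4HA1, a collagen prolyl hydroxylase, was at 161 to 376 CPM in N clones (median 187 CPM) and 180.2 to 356 CPM in A clones (median 277 CPM), a log2 fold change of 0.33 (SE 0.185, adjusted p = 0.200). It passed without animal 22 (log2 fold change 0.66, adjusted p = 0.0146; range 0.0146 to 0.773 over the alternatives). Its partner P4HA2 had a value of 0.06 (adjusted p = 0.808).

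BNIP3 and BNIP3L, mitophagy receptors, had log2 fold changes of 0.35 (SE 0.210, adjusted p = 0.234) and -0.31 (SE 0.219, adjusted p = 0.311). BNIP3 was at 10.6 to 22.5 CPM in N clones (median 16.0 CPM) and 12.8 to 43.2 CPM in A clones (median 18.8 CPM). BNIP3L was at 45.8 to 186 CPM in N clones (median 113 CPM) and 52.7 to 209.7 CPM in A clones (median 81.8 CPM). For BNIP3, A clones 23-14 and 20-106 lay above every N clone and 3 N clones lay below every A clone, while for BNIP3L only A clone 20-106 lay above and only N clone 23-74 below the range of the other group.

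NDRG1, a stress-responsive gene that hypoxia induces, was at 112 to 232 CPM in N clones (median 155 CPM) and 88.9 to 469 CPM in A clones (median 175 CPM). The 3 A clones above every N clone were 22-11, 22-16 and 22-27, all of animal 22, at 469, 447 and 299 CPM. The log2 fold change was 0.39 (SE 0.253, adjusted p = 0.271). ADM, the vasodilator adrenomedullin, spread widely in both groups, from 18.4 to 194 CPM in N clones and from 7.73 to 209 CPM in A clones, with a log2 fold change of 0.45 (SE 0.541, adjusted p = 0.576).

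The hypoxia genes that the filter left out had low counts in most N clones, and CA9 and CA12 were high in a few clones. CA9 (carbonic anhydrase 9) had 275 counts in N clone 22-9, 78 in A clone 22-11, and 20 and 22 in N clone 22-5 and A clone 22-16, with at most 11 in any other clone. CA12, a related enzyme, had 478 counts in both N clone 22-18 and A clone 22-11, and 337 and 179 in A clones 23-62 and 22-16. The median count of CA12 was 46 in A clones and 1.5 in N clones, and all 10 A clones lay above its N median in CPM. Its mean log2 level was higher in A clones in 3 animals and lower in 1. CA9 and CA12 had, with ENO2 among N clones and ADM among A clones, the largest standard deviations of log2 level, 2.09 and 2.16 in N clones and 1.55 and 2.46 in A clones.

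EGLN3, the prolyl hydroxylase that hypoxia induces most, had 0 to 12 counts in N clones and 3 to 38 in A clones. In 6 A clones its CPM lay above every N clone. ANKRD37, a small HIF-1 target, had 1 to 15 counts in N clones and 5 to 23 in A clones. Fitted without the filter, EGLN3 passed, as PDK4 did, with a log2 fold change of 2.21 (SE 0.579, adjusted p = 0.0196), and CA9, CA12 and ANKRD37 did not pass (adjusted p = 0.578, 0.155 and 0.175), all at counts where the fitted size depends on the prior count.

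**Figure D3:**
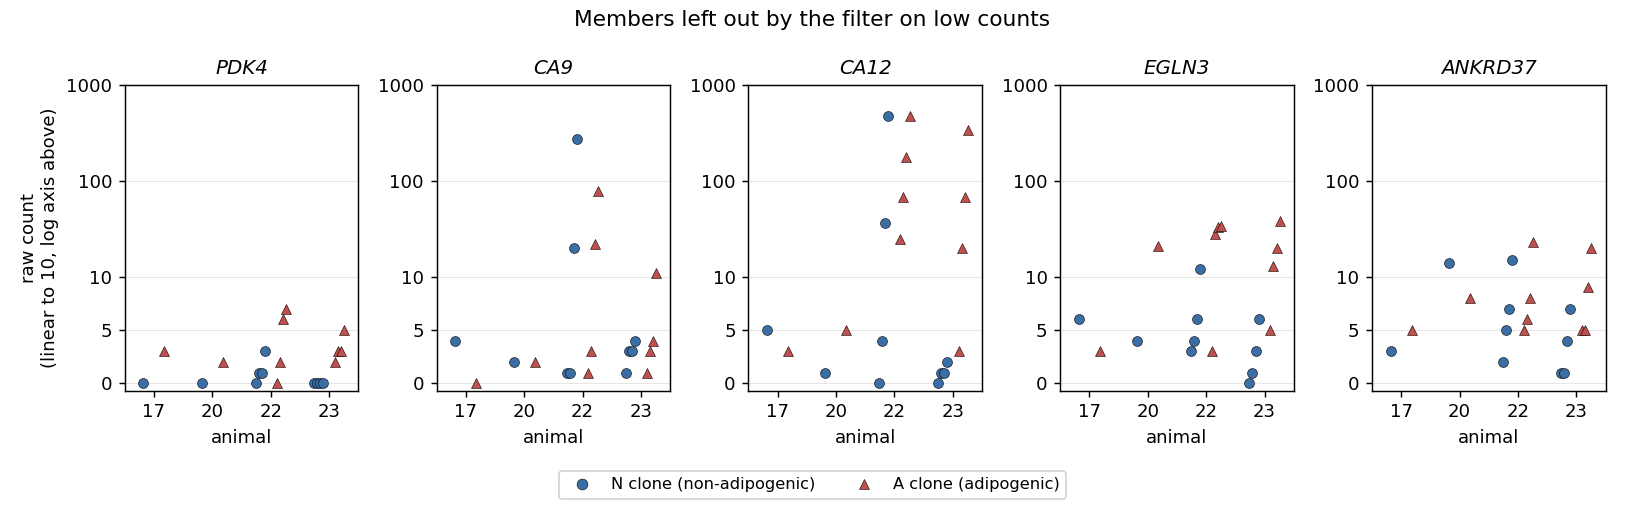
Raw counts (linear up to 10, log axis above) of the 5 members that the filter on low counts removed, in each clone by animal; N clones are blue circles and A clones red triangles, set side by side in order of level. PDK4 stays at 7 counts or fewer in every clone, while single clones of animal 22 reach 275 counts of CA9 or 478 of CA12.

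Balance between related genes was examined as the log2 ratio of their counts within a clone, which needs no scaling between libraries. Of 14 pairs, 11 had both genes past the filter. With all clones, none passed after adjustment over the pairs, and 4 had an unadjusted p under 0.05 (two-sided exact permutation test of labels within animals, where 19600 arrangements allow a smallest p of 0.000102). The PDK3/PDK1 ratio ran from -1.80 to -0.38 in N clones and from -1.09 to 0.21 in A clones on the log2 scale. In each of the 4 animals the A clones had the higher mean ratio, no N clone reached 4 of the A clones, and the mean difference was 0.65 (exact p = 0.00724, adjusted p = 0.0797).

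The other pairs with an unadjusted p under 0.05 shared an adjusted p of 0.101 from the same exact permutation test. The HK2/HK1 ratio was 1.26 higher in A clones on the log2 scale (exact p = 0.0368), with A clone 17-57 going the other way. PFKP/PFKL differed by -0.73 (exact p = 0.0193) and BNIP3L/BNIP3 by -0.55 (exact p = 0.0323), both in all 4 animals. Leaving out 1 clone took some of these ratios past the threshold. This happened for PDK3/PDK1 in 5 of 20 such fits (without N clones 22-5, 22-9, 22-17 or 22-18 or A clone 22-121, adjusted exact p down to 0.0326), for PFKP/PFKL in 2 (without N clone 22-5 or 22-9, down to 0.0135) and for HK2/HK1 in 1 (without N clone 22-9, 0.0385). The remaining 7 pairs, SLC2A3/SLC2A1 and LDHB/LDHA among them, had differences between -0.52 and 0.06.

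**Figure D4:**
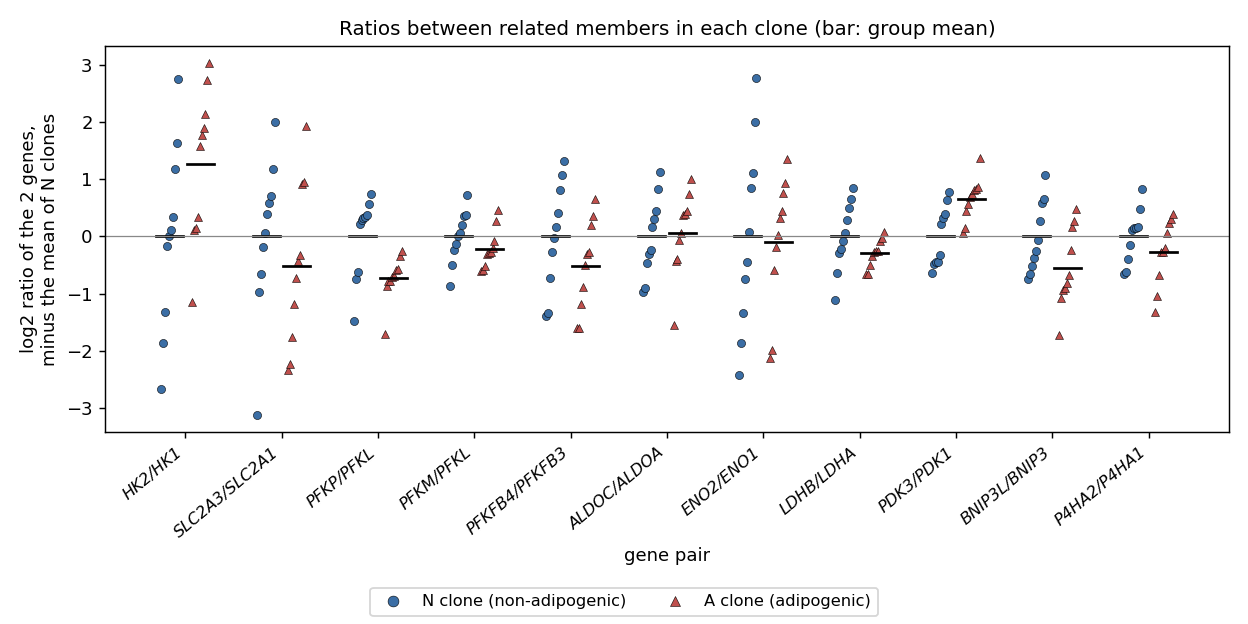
Log2 ratio of 2 related members in each clone, less the mean of the N clones of that pair, for the 11 pairs tested; N clones are blue circles, A clones red triangles, both in order of level, and black bars are group means. The A mean lies 0.65 above the N mean for PDK3/PDK1 and 0.73 below it for PFKP/PFKL, with overlapping points in every pair.

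The differences were also compared between animals 22 and 23, which had 4 A and 4 N clones each. Of 35 members tested, 0 had a condition by animal term past an adjusted p of 0.05 (edgeR's quasi-likelihood test, smallest adjusted p = 0.462), 4 had an unadjusted p under 0.05 (SLC2A3, PDK3, PFKFB4 and CA12), and DESeq2 called 0. Over all genes this term was past the threshold in 0.031%. On simulated data the edgeR test found 71.1% of interactions of 2 and 53.4% of interactions of 1.5 on the log2 scale, so that differences between these animals could be missed. Within animal 23 all 4 A clones lay above all 4 N clones for SLC2A1 (17.3 to 53.7 against 3.54 to 10.6 CPM), HK2 (23.9 to 88.2 against 3.22 to 22.4 CPM), PDK3 and HIF1A. In animal 22 this held for HIF1A (167 to 248 against 62.1 to 139 CPM) and for none of the other called members.

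Fitted alone, animal 23 gave 6 called members, SLC2A1, SLC2A3, PFKP, PDK3, P4HA1 and HIF1A, while 800 of 12853 genes were called. Animal 22 alone gave 0 called members with 6 at an unadjusted p under 0.05, while 153 of 13305 genes were called. Without animal 23 none of the 6 members passed, with log2 fold changes of 1.57 for SLC2A1, 0.90 for HK2, -0.82 for PFKP, 0.59 for PDK3, 0.71 for VEGFA and 0.74 for HIF1A, and 4 members had an unadjusted p under 0.05. That fit called 32 of 13071 genes in all.

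Clones of the same group varied more in some members than in others. Standard deviations of the log2 level were larger among N than among A clones for 26 of the 34 tested genes. HK2 and SLC2A1 varied most among the called members, with 1.44 and 1.16 in N clones and 1.40 and 1.12 in A clones, against 0.13 and 0.23 for PKM. The condition took more of the variance than the animal in 13 genes and less in 21. After removing condition and animal, the tested glycolysis genes had a median pairwise correlation of 0.195 over 253 pairs across the 20 clones. The value was 0.140 over 55 pairs of hypoxia genes and 0.0001 over all gene pairs. Within the glycolysis genes, the 9 enzymes from GPI to LDHA, grouped above after their values had been seen, had a median of 0.558 over 36 pairs. These correlations are descriptive, and their points share libraries, depth and animals.

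**Figure D5:**
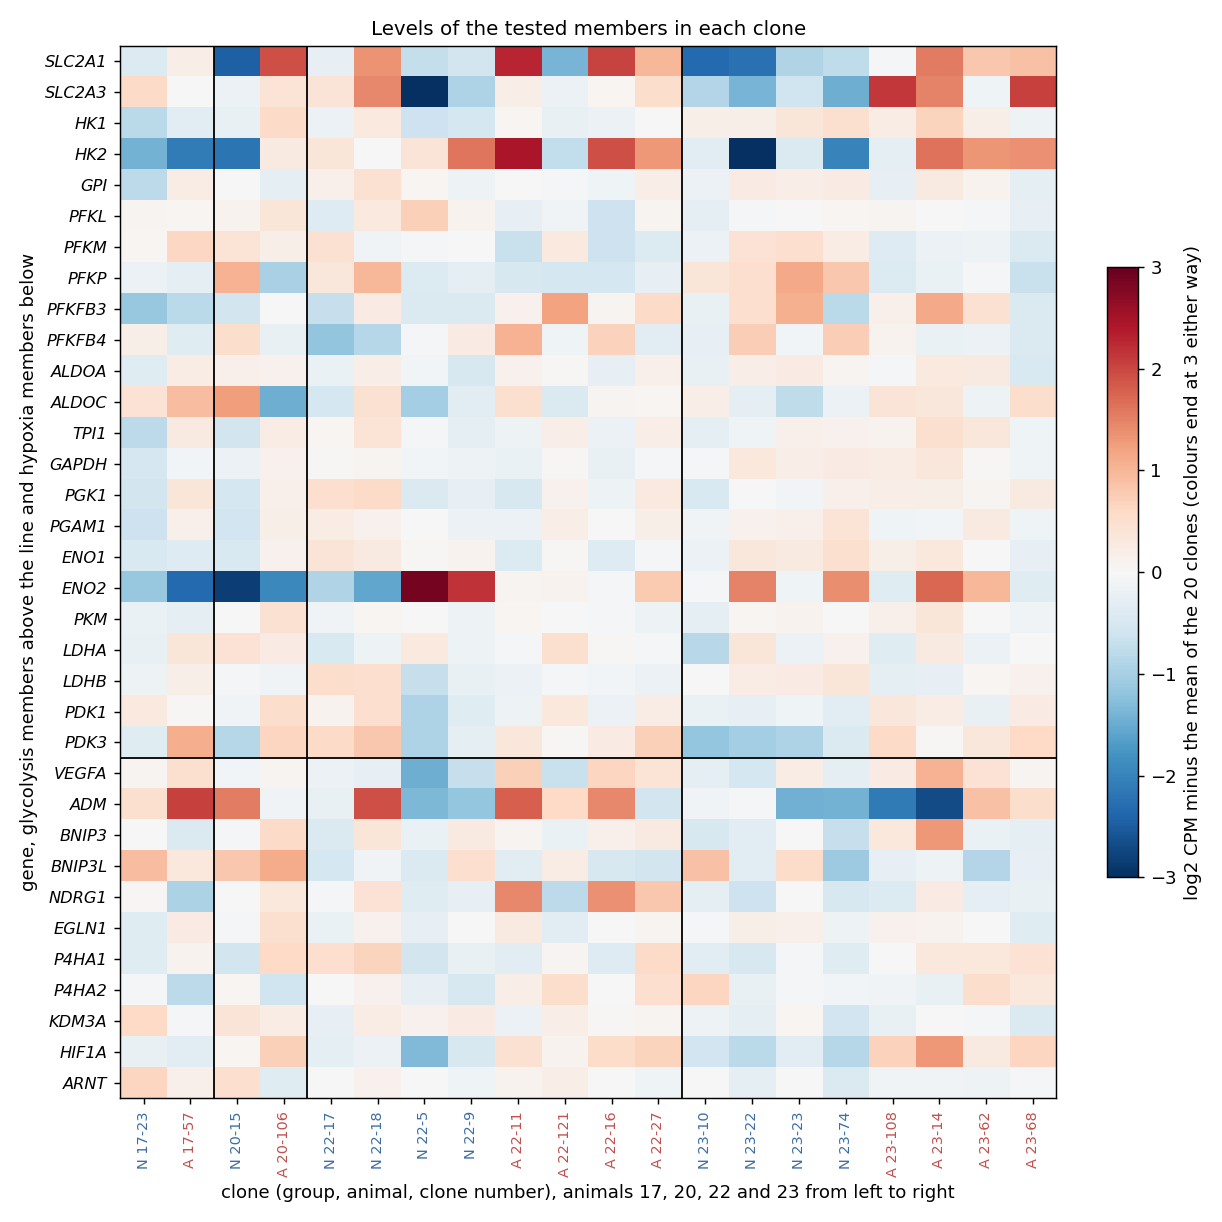
Log2 CPM of the 34 tested members in each of the 20 clones, less the mean of the gene, with N clones labelled in blue and A clones in red and animals separated by lines. Rows from ALDOA to PKM are pale, apart from ALDOC and ENO2, while SLC2A1, SLC2A3, HK2, ENO2 and ADM differ by several units between clones of 1 group.

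Other genes of the same pathways, 78 of which were listed, changed at the rate of genes in general: 66 were tested, and 9 rose and 5 fell in A clones, 21.2% of them against 20.6% of all genes. Their median log2 fold change was 0.05. Among pyruvate and transport genes, SLC16A1, a lactate and pyruvate transporter, was at 62.4 to 204 CPM in N clones and 77.3 to 279 CPM in A clones and rose by 0.60 (adjusted p = 0.0293, edgeR's test). SLC2A8, an intracellular glucose transporter, rose by 0.52 (adjusted p = 0.0489, same test), and SLC2A6, a lysosomal one, had a value of -0.49 (adjusted p = 0.0217). SLC2A6 went the other way in animals 17 and 20, by 0.10 and 0.16.

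PDHA1 and PDHB, which encode the subunits of the pyruvate dehydrogenase component that the PDK kinases act on, were both lower in A clones. PDHB was at 66.8 to 112 CPM in N clones (median 74.2 CPM) and 43.1 to 70.8 CPM in A clones (median 57.5 CPM), and no N clone reached as low as 8 of the A clones. The change was -0.53 on the log2 scale (SE 0.110, adjusted p = 0.00457), and that of PDHA1 -0.23 (SE 0.0781, adjusted p = 0.0467). PGD, of the oxidative pentose phosphate pathway, had -0.30 (adjusted p = 0.0239). PDHB and PGD went the other way in animal 17, by 0.0606 and 0.0645, and PDHA1 in animal 20, by 0.17.

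Among the further hypoxia response genes, ARNT2, a paralogue of ARNT, had the largest difference, with medians of 0.896 and 4.802 CPM in N and A clones. It was higher in 9 A clones than in any N clone, with a log2 fold change of 2.15 (SE 0.447, adjusted p = 0.00469). HILPDA, a lipid droplet protein that hypoxia induces, was at 0.847 to 7.41 CPM in N clones and 2.56 to 15.7 CPM in A clones (log2 fold change 1.82, adjusted p = 0.00897).

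ERRFI1, a feedback inhibitor of the EGF receptor, rose by 1.43 (adjusted p = 0.00199), RORA, a nuclear receptor, by 1.23 (adjusted p = 0.00293), TMEM45A, a membrane protein, by 0.54 (adjusted p = 0.0483) and INSIG2, a regulator of sterol synthesis, by 0.39 (adjusted p = 0.0228). TMEM45A went the other way in animals 17 and 20, by -0.93 and -0.07. DUSP1, a phosphatase of MAP kinases, was the only called gene of this list lower in A clones, with a log2 fold change of -0.74 (adjusted p = 0.0194, edgeR's test). EPAS1, which encodes the related HIF-2α subunit, did not pass (0.25, adjusted p = 0.680).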

How the data were processed

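Libraries of 20 clones were made with a directional kit and sequenced as paired reads. Reads were trimmed (Trimmomatic), mapped to ARS-UCD1.2 (STAR) and, where unique and within exons, counted (Subread) by the authors, who deposited the raw counts per gene and clone. Their strand setting is not given in the sources used here, so genes that overlap or have near-identical copies are uncertain. The row without a name (0.113% to 0.333% of counts) was left out.

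Counts were fitted with edgeR 4.0.16 in R 4.3.3: TMM scaling, edgeR's default filter (12900 genes kept, of 23383 with a count), and a robust quasi-likelihood test of the condition with the animal as a block. P-values were adjusted by the Benjamini-Hochberg method over all genes tested. Levels are CPM with TMM scaling, and log2 levels used a prior count of 2. Clones were paired by animal: after subtraction of the group means, the A and N levels of 1 animal correlated across genes at 0.253, 0.193, 0.241 and 0.440 (animals 17, 20, 22 and 23). Gene pairs were tested by exact permutation within animals in Python 3 with numpy.

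The genes and lists were chosen with earlier results of these data known. Full statistics are given for called members and for those of smallest p up to 15, for the members with the largest spreads, and for called genes of the other lists, of which 1 is not reported here. The labelled cell type was checked against fixed marker lists. The closest libraries, A clones 22-11 and 22-16, still differed 21.3 times more than counting noise allows (chi-square per degree of freedom, against 49.7 for the next closest of 90 pairs within groups) and were kept as separate clones. Among genes of higher count, 1.04% differed by more than 2-fold between them, against 4.64% for that next pair. Only the fits without any clone of animal 22 left out both. P-values measure the spread between clones of these animals.

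Alternatives were a fit without the animal, other scalings (DESeq2 size factors, upper quartile), other filters, DESeq2 1.42.0, limma-voom (limma 3.58.1), counts summed per animal and condition, single animals, and fits without each clone or animal. Fits without N clones 22-5 and 22-9 were added after seeing the data. Ranges of the adjusted p over the alternatives do not include the fits of single animals. On simulated counts for 12819 genes the main test found 94.4% of changes of 1.5 and 94.5% of changes of 2 on the log2 scale, with 7 false calls. The simulated means did not differ between animals, and genes of low level were given no change. Changes below 1.5 were not simulated, so these shares do not apply to them. Low counts limit PDK4, CA9, CA12, EGLN3 and ANKRD37 most.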

Additional observations from a re-analysis of the deposited data

Results flagged for a closer look

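The gap between the extreme clone and its nearest neighbour was compared with the whole range of its group of 10 clones, on the log2 scale, in 102 groups of values, of which 4 exceeded Dixon's critical value of 0.466. Chance flags about 1 in 20 groups, or 5.1 here. CA9 in N clones gave 0.536, because N clone 22-9 held 16.5 CPM and the next N clone, 22-5, held 1.13 CPM. GPI, glucose 6-phosphate isomerase, gave 0.501 in N clones, with N clone 17-23 low at 226 CPM and the next at 347 CPM. The log2 ratio of PFKP to PFKL gave 0.577 in A clones, where A clone 20-106 was at -0.53 and the next at 0.31. The total count gave 0.574 in N clones, with 43111345 counts in N clone 22-18 and 23425994 in the next. No cause was tested for any of the 4.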

How the results depend on the processing

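SLC2A1, PFKP, PDK3 and HIF1A passed in every fit that left out 1 clone, without animal 17, 20 or 22, under DESeq2, limma-voom and each scaling and filter, and failed in the fits of animal 22 alone, without animal 23 and on summed counts. VEGFA also failed without animal 22 (adjusted p = 0.0842), in animal 23 alone (0.114) and without N clones 22-5 and 22-9. HK2 also failed with no filter (adjusted p = 0.0592), with limma-voom (0.0720), without animal 20 or 22 (0.0701 and 0.0734) and in animal 23 alone (0.0765). Without the replicate block, 4 members were higher and 1 lower in A clones, HK2 being the one lost, with 8 and 5 of the other pathway genes, and the block changed no other member's call. Counts summed per animal and condition called 0 members, 0 other pathway genes and 0 of 14669 genes, with 7 members and 14 other pathway genes at an unadjusted p under 0.05 by edgeR's test.

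The number of members higher in A clones was 5, and was 0 in animal 22 alone, 3 with a 2-fold change required, and 0 to 6 over the fits that left out a clone or an animal. The number lower was 1, and was 0 in animal 22 alone, 0 with a 2-fold change required, and 0 to 2 over those fits, the low ends without animal 23. Other pathway genes were 9 higher and 5 lower. Over the same fits they ranged from 0 to 11 and from 0 to 9, with 0 in either direction without animal 23, 1 lower without animal 22 and 9 lower without N clone 22-18. DESeq2 gave 8 lower, and the fit without N clones 22-5 and 22-9 gave 2 lower.

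Of 45 single fold changes and ratios, 23 kept their direction and their side of the threshold in every alternative run on them, which were at most 33 for a fold change and 22 for a ratio and did not include the fits of animal 22 or 23 alone. Those were run for the counts of called genes only, and the difference of means within 1 or both of these animals had the opposite sign for ADM, ALDOA, ARNT, EGLN1, HK1, KDM3A, PGAM1, PGK1 and TPI1. It was also opposite for the ratio SLC2A3/SLC2A1 in animal 23 (0.12) and for P4HA2/P4HA1 in animal 22 (0.57). Signs turned on summed counts for GPI (0.0761), ALDOC (-0.25), ENO1 (0.0244) and P4HA2 (-0.24), with limma-voom for PFKFB4 (0.13), and without N clones 22-5 and 22-9 for ENO2 (0.34) and P4HA2 (-0.0596). Over the fits that left out a clone or an animal, values ran from -0.0179 to 1.85 for SLC2A3, -0.17 to 0.0143 for GPI, -0.26 to 0.0501 for PFKL, -0.57 to 0.31 for PFKFB4, -0.0590 to 0.43 for ALDOC, -0.0329 to 0.0781 for GAPDH, -0.24 to 0.000296 for ENO1, -0.19 to 0.15 for P4HA2, -0.0516 to 0.24 for ALDOC/ALDOA and -0.37 to 0.20 for ENO2/ENO1. None of these had passed. The cause was not tested. With clones from 4 animals, smaller differences could be missed, and counts below about 10 carry large counting error.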

Other observations

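Single clones held many of the extreme values, a pattern noticed after the values were seen and not tested. Among the 34 tested members, N clone 22-18 was the highest N clone for 11 genes (SLC2A1, SLC2A3, GPI, TPI1, PGK1, PDK1, PDK3, ADM, BNIP3, NDRG1 and P4HA1) and the lowest for 0. It also had the largest total count and the lowest summed level of proliferation genes of the N clones, 191 CPM. A clone 23-14 was the highest A clone for 10 genes, among them HIF1A, VEGFA, HK1, GAPDH and ENO1, and had the lowest ADM level of all clones, 7.73 CPM.

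A clone 22-121 had the lowest SLC2A1, SLC2A3, PDK3 and VEGFA levels of its group, and the highest PFKFB3 and LDHA levels of all 20 clones, at 103 and 753 CPM. A clones 22-11 and 22-16, whose libraries were the closest of any within a group, had the highest SLC2A1 (88.6 and 74.3 CPM), HK2 (157 and 110.1 CPM) and NDRG1 (469 and 447 CPM) levels and the lowest PFKM levels (20.9 and 21.7 CPM) of all clones. Of the A clones, 22-11 and 22-16 also had the highest summed mesothelial markers, at 1095 and 939 CPM, with A clone 23-62 next at 385 CPM. Whether these clones share a feature of culture or origin was not tested.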
